A study of Mus musculus with 2 samples.

Results

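STAT factors are the transcription factors that cytokine receptors use to reach the nucleus, and SOCS proteins are the inhibitors that the same pathway induces to switch itself off. The genes *Stat2*, *Stat3*, *Stat4*, *Stat5a*, *Stat5b* and *Stat6* and the SOCS family inhibitors *Socs1*, *Socs3* and *Cish* were read on the gene microarray of IR-61-treated macrophages. These 9 genes were taken by symbol, with every probe that carried a RefSeq transcript of the gene, from 20655 genes that could be named on the array. RAW264.7, an established macrophage line from an Abelson murine leukemia virus-induced tumor of a male adult BALB/c mouse, was treated for 24 h with vehicle or with 10 μM IR-61. IR-61 is a lipophilic, positively charged heptamethine cyanine dye that accumulates in mitochondria. Each condition was 1 culture on 1 single-colour Agilent array, so no test between the conditions was possible, no p-value is given, and what the dye did and what merely differed between the 2 cultures cannot be told apart.

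In resting cells STAT proteins wait in the cytoplasm. A cytokine or interferon brings together its receptor chains, the JAK kinases bound to these chains phosphorylate the receptor and the STAT, and the STAT pair moves to the nucleus and binds DNA. STAT2 serves type I interferons together with IRF9, STAT3 serves IL-6 and IL-10, STAT4 serves IL-12, STAT5A and STAT5B serve GM-CSF, and STAT6 serves IL-4 and IL-13. SOCS1, SOCS3 and CISH bind activated receptors or JAKs and shut the signal down, and in macrophages SOCS3 restrains IL-6 signaling while SOCS1 restrains interferon signaling. An array measures the mRNA of these genes and not the phosphorylation that activates the STAT proteins.

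The start sites of *Cish* and *Socs3*, which had lower signals with IR-61, and of *Socs1*, which had a higher one, are shown because they hold short motifs that STAT or interferon regulatory factors bind. So do *Stat2* and a second start site of *Stat4*. The sequences are from RefSeq, build GRCm38.p6, and are written 5′ to 3′ on the strand of the gene, with the matches in capitals.
Cish, chr9:107296579-107296678, plus strand: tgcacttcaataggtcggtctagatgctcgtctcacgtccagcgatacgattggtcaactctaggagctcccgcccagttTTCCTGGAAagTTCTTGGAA
Socs3, chr11:117969467-117969566, minus strand: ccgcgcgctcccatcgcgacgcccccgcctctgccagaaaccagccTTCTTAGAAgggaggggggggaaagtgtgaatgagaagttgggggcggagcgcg
Socs1, chr16:10785562-10785661, minus strand: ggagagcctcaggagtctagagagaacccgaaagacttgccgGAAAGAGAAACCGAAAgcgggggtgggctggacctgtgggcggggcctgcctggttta
Stat2, chr10:128270248-128270347, plus strand: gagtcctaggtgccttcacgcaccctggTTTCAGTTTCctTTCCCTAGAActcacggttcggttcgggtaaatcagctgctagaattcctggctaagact
Stat4, chr1:52008098-52008197, plus strand: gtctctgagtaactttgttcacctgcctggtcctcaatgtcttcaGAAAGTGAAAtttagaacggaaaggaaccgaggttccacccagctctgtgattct
Windows from 250 bases before to 50 bases after each annotated start were searched on both strands for TTCNNNGAA, the palindrome bound by most STAT pairs, for TTCNNNNGAA, the wider spacing that STAT6 prefers, and for GAAANNGAAA, the core of the interferon-stimulated response element. Of all 32851 mouse windows, 8.30% held the first, 6.95% the second and 3.44% the third. *Cish* held the STAT palindrome at positions 1 to 9 and again at 12 to 20, counted from the start site. *Socs3* held it at −154 to −146. *Socs1* held the interferon element at −83 to −74 and at −77 to −68, 2 matches that overlap each other, and no STAT palindrome. The *Stat2* window held the interferon element at −222 to −213 and the STAT6 spacing at −210 to −201, and the second *Stat4* window held the interferon element at −97 to −88. The windows of *Stat3*, *Stat5a*, *Stat5b* and *Stat6* and the other window of *Stat4* held none of the motifs. A match describes the letters of a window, and binding at these sites was not measured.

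All 9 genes were expressed above background. Their 13 probes were well above background on both arrays, by the flag of the scanner software, and no spot of either array was saturated. The IR-61 array was brighter as a whole, with a 75th percentile of log2 signal 0.49 above that of the vehicle array. A scaled signal is therefore the log2 signal minus the 75th percentile of its array, and differences are given as the IR-61 value less the vehicle value, where 1 means 2-fold. Without scaling every difference is 0.49 higher, so that a scaled value between −0.49 and 0 changes its sign. Over the 16888 genes measured on both arrays the median difference was 0.10 and the SD across genes 0.44. A gene takes the value of its brightest probe. The error given with a difference is an expected SD taken from probes printed many times, which covers noise within the arrays and not the difference between cultures. Of 10 listed macrophage markers 9 were named on the array, among them *Adgre1*, *Csf1r*, *Itgam*, *Lyz2* and *Mpeg1*, and all 9 were well above background in both conditions. Their summed signal, in units of the 75th percentile, was 239 with vehicle and 277 with IR-61. *Adgre1* was higher by 1.03 and *Aif1* by 1.08, while *Cd14* had a difference of −0.98 and *Spi1* of −0.83. Of 9 named markers of other cells, neither array had *Ncr1*, *Epcam* or *Adipoq* well above background, and the other 6, among them *Siglech* and *Col1a1*, were above it, with a summed signal of 62.3 and 69.5 for all 9. The B cell marker *Ms4a1* had the largest fall of these, −1.46, from a signal of 353 to 180, and *Col1a1* the largest rise, 0.62. The part of these shifts in the results below was not tested.

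In the IR-61 culture *Stat4* was 2.18-fold lower, *Socs3* 1.74-fold lower and *Cish* 1.69-fold lower than in the vehicle culture on the scaled arrays. *Stat5b* had a 1.44-fold and *Socs1* a 1.40-fold higher signal, neither past 1.5-fold. The differences of *Stat2* and *Stat5a* were within the expected SD, and those of *Stat3* and *Stat6* were −0.19 and −0.23. The median over the 9 genes was −0.19, with 5 lower and 4 higher. Of all measured genes 39.5% were as low as *Stat2*, whose difference was 0.01, and their median was 0.10. Less that median, *Stat2* was at −0.09 and *Stat5a* at −0.07, so a split around 0 depends on where 0 is set. Only *Stat4* passed the 2-fold limit, which makes 1 of 9 lower by 2-fold or more, against 1.39% of all measured genes, and none of 9 higher, against 1.99%. With a limit of 1.5-fold, set after the values were seen, *Stat4*, *Socs3* and *Cish* were lower, 3 of 9 against 5.68% of all measured genes. None of the 9 was higher by 1.5-fold, against 9.79%.

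**Figure D1:**
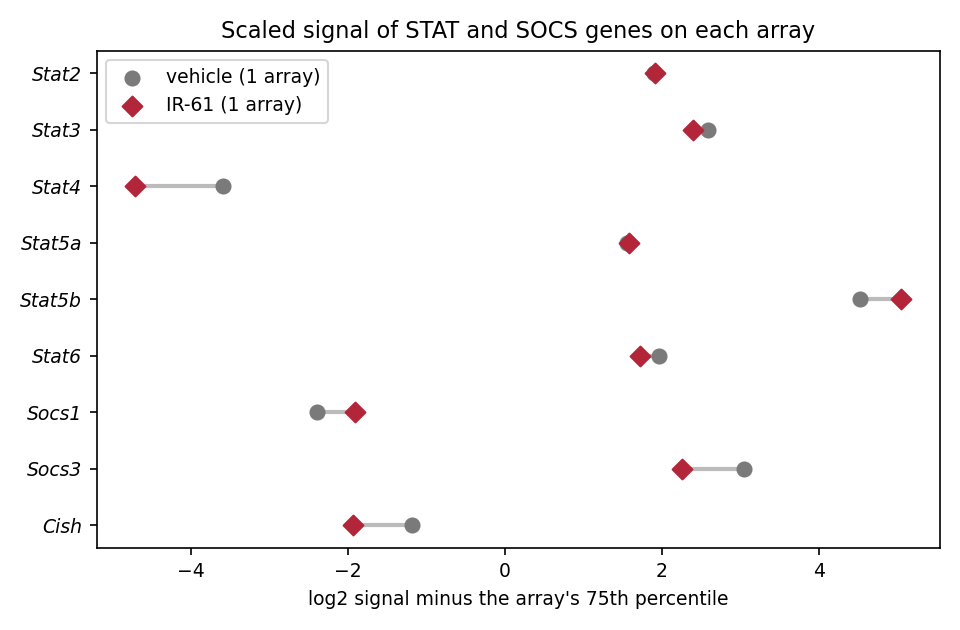
Scaled log2 signal (log2 signal minus the array's 75th percentile, horizontal axis) of the brightest probe of each gene with vehicle (grey circles) and IR-61 (red diamonds), 1 array each. The IR-61 value lies to the left for *Stat4*, *Socs3* and *Cish* and to the right for *Stat5b* and *Socs1*, and levels of different genes cannot be compared because each probe binds with its own strength.

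*Stat4*, the factor that IL-12 receptors use, showed the largest change of the 9 genes. Its only probe, A_51_P177092, had a signal of 105 with vehicle and 67.7 with IR-61. The signal was lower with IR-61 even though the IR-61 array was the brighter. After scaling the difference was −1.13, equal to a 2.18-fold lower signal, with an expected SD between spots of 0.23. The IR-61 signal lay just above the log2 intensity limit of 6. Under that limit the SD between spots on the IR-61 array was 0.34 in place of 0.15, so 0.23 may be too low. *Stat4* took rank 172 from the largest fall of the 16888 measured genes. It was a dim probe, and of the 6508 genes with a mean log2 intensity between 6 and 10, 1.78% had a fall past this limit. The difference was −0.64 without scaling and, with normexp background correction, −0.84, both short of 2-fold.

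*Socs3*, the inhibitor induced by IL-6 and IL-10 through STAT3, had a signal of 10481 with vehicle and 8472 with IR-61. The difference was −0.80, a 1.74-fold lower signal, with an expected SD of 0.095. *Cish*, the inhibitor induced through STAT5, had a signal of 560 and 464. The difference was −0.76, a 1.69-fold lower signal, with an expected SD of 0.23. Both fell short of the 2-fold limit, and each was read by a single spot per array. Like *Stat4*, both had a lower signal on the brighter IR-61 array before any scaling, with unscaled differences of −0.31 for *Socs3* and −0.27 for *Cish*. *Socs3* took rank 436 and *Cish* rank 501 from the largest fall, and 2.58% and 2.97% of the measured genes were at least as low.

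*Socs1*, the inhibitor of interferon signaling, had a difference of the opposite sign. Its signal was 240 with vehicle and 472 with IR-61. The scaled difference was 0.49, a 1.40-fold higher signal, with an expected SD of 0.23, and 14.3% of the measured genes were at least as high. The 3 inhibitors thus did not share a sign.

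*Stat5b*, which carries GM-CSF signals together with *Stat5a*, was read by a pair of probes. The brighter rose from a signal of 29236 to 58882 and the dimmer from 1788 to 3633. Their scaled differences were 0.52 and 0.53, each with an expected SD of 0.095, so the probes differed from each other by less than the spread between spots. The fold of the brighter probe was 1.44 after scaling, and 12.3% of the measured genes were at least as high. *Stat5a* had a signal of 3724 and 5329, and its difference of 0.03 was within the expected SD of 0.095. *Stat5b*, *Stat5a* and *Stat3* follow each other on chromosome 11. The mRNAs of *Stat5a* and *Stat5b* are very similar, and whether a probe of the one also binds the other was not tested because the files hold no probe sequences.

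*Stat3* is the gene whose level rests on the most spots, because its brightest probe, A_51_P201480, was printed 10 times. With vehicle the 10 spots had signals between 7280 and 8038 with a median of 7584. With IR-61 the 9 spots without an outlier flag lay between 8667 and 9892 with a median of 9404. Unscaled, every IR-61 spot was above every vehicle spot. After scaling the order was the reverse, with 2.59 ± 0.04 (SD between spots, 10 spots) for vehicle and 2.39 ± 0.06 (9 spots) for IR-61, and no overlap, since the scaled vehicle spots began at 2.53 and the IR-61 spots ended at 2.48. The difference was −0.19 with an expected SD of 0.031, and it was 0.29 without scaling. The direction for *Stat3* thus depended on the scaling, although the spots were separate on either scale. A second, dim probe had a signal of 164 and 184 and a difference of −0.32, with an expected SD of 0.23.

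*Stat6*, the factor of IL-4 signaling and alternative activation, had 3 probes that disagreed. The brightest had a signal of 4916 with vehicle and 5876 with IR-61 and a difference of −0.23, which turned to 0.26 without scaling. Another had 442 and 430 and a difference of −0.53, and the dimmest had 163 and 253 and a difference of 0.15. The last lay within its expected SD of 0.23 of no change. *Stat2*, the factor specific to interferons, had a signal of 4739 and 6683, a rise close to that of the whole array, and its difference of 0.01 was within the expected SD of 0.095.

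**Figure D2:**
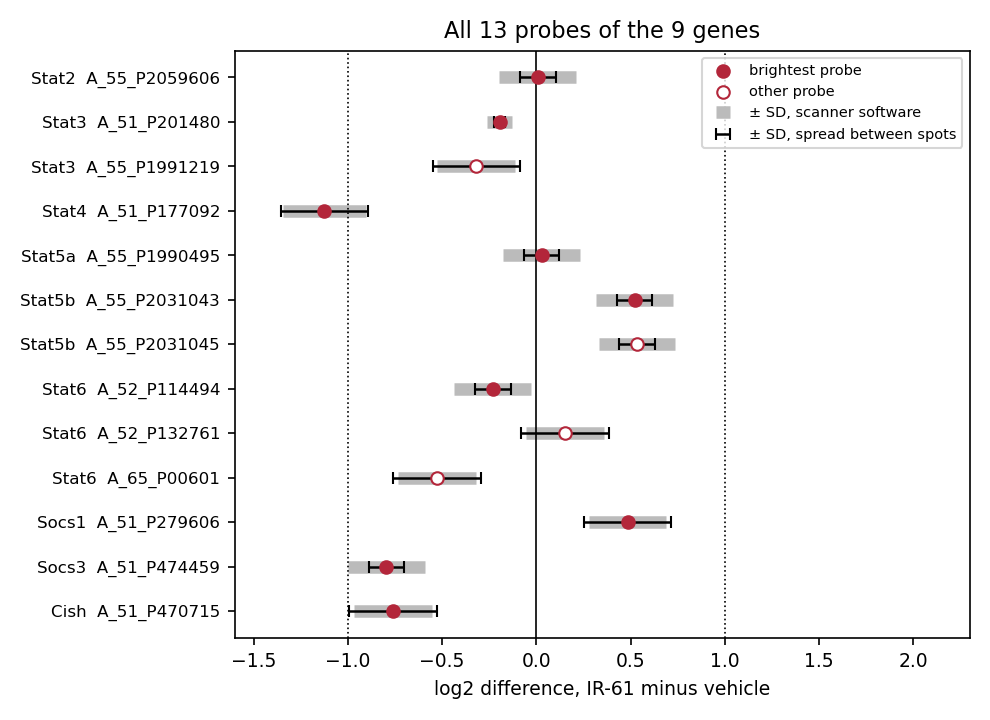
log2 difference (IR-61 minus vehicle, horizontal axis) of all 13 probes of the 9 genes, as filled circles for the brightest probe and open circles for others. Thin bars are ± the expected SD from repeated spots, grey bars ± the SD from the error that the scanner software gives each spot, and dotted lines mark 2-fold; the pair of *Stat5b* probes coincide, and the 3 *Stat6* probes lie between −0.53 and 0.15.

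The scanner software attaches a wider error to bright spots than the repeated spots show. By that estimate the SD of a difference was 0.20 for *Socs3*, *Cish*, *Stat5b*, *Stat2* and *Stat5a*, 0.21 for *Socs1* and 0.22 for *Stat4*. The differences of *Stat4*, *Socs3*, *Cish*, *Stat5b* and *Socs1* exceeded this SD as well, whereas that of *Stat6* at −0.23 was close to it. That of *Stat3*, −0.19 with an SD of 0.066, exceeded it too, although its direction depended on the scaling.

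**Figure D3:**
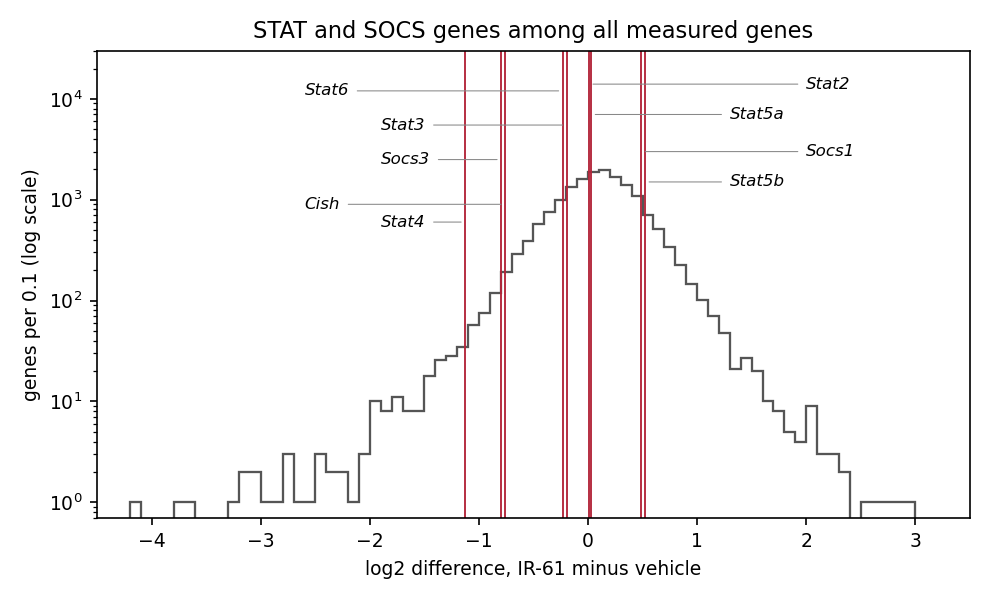
Number of genes (vertical axis, log scale) per 0.1 of log2 difference, IR-61 minus vehicle (horizontal axis), over the 16888 genes measured on both arrays, with red lines at the 9 genes. *Stat4* at −1.13 lies in the lower tail, *Socs3* and *Cish* at −0.80 and −0.76 on its shoulder, and the other 6 genes lie within the bulk of the distribution.

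*Stat4*, *Socs3* and *Cish* were lower and *Stat5b* and *Socs1* higher under each of 12 ways of processing, which were the reported one, 4 other scalings, no scaling, the deposited log2 values, normexp background correction, the mean over probes, outlier spots kept and other filters on dim probes. *Stat4* ranged from −1.24 to −0.64, *Socs3* from −0.88 to −0.31, *Cish* from −0.84 to −0.27, *Stat5b* from 0.44 to 1.01 and *Socs1* from 0.37 to 0.97. Not all of the 12 could change a value. For *Stat4*, *Socs3*, *Cish* and *Socs1*, with 1 probe each, the mean over probes and the filters on dim probes could not. Only no scaling and normexp moved *Stat4* by more than its expected SD. For *Socs3*, *Cish*, *Stat5b* and *Socs1* only no scaling did so. *Stat3* and *Stat6* were lower under 11 of the 12 and higher without scaling. *Stat2*, from −0.07 to 0.50, and *Stat5a*, from −0.05 to 0.52, had no stable direction.

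**Figure D4:**
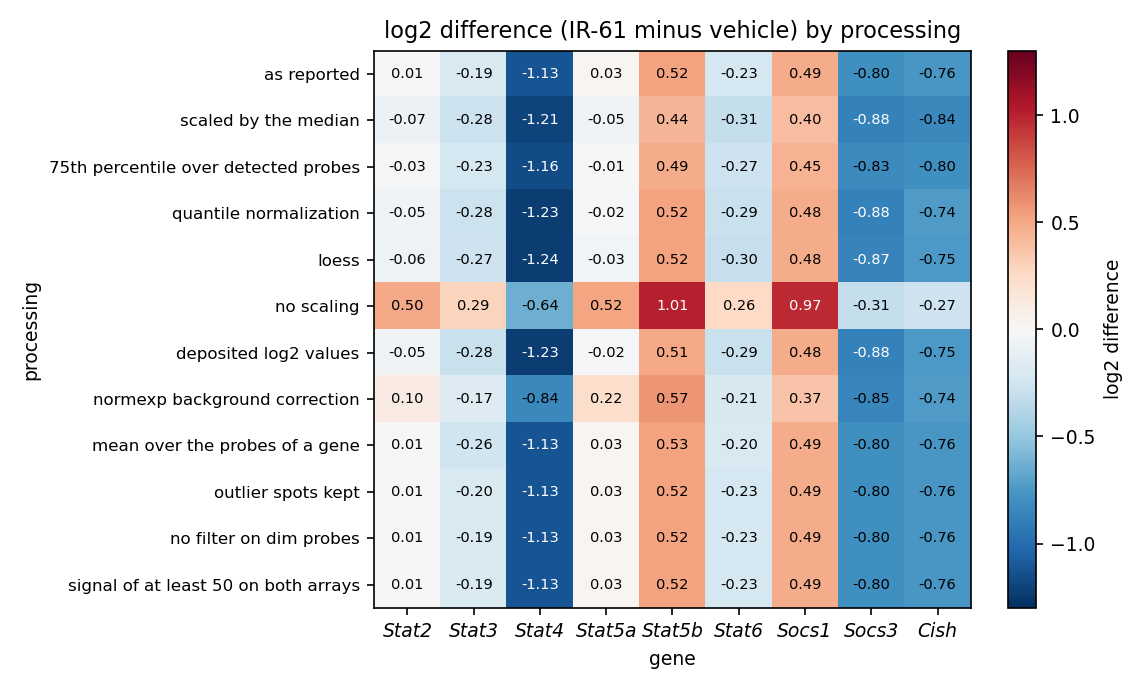
log2 difference (IR-61 minus vehicle, colour and number) of each gene (columns) under each way of processing (rows), blue for lower and red for higher with IR-61. The columns of *Stat4*, *Socs3* and *Cish* stay blue and those of *Stat5b* and *Socs1* stay red, while the row without scaling is shifted upward as a whole.

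Upstream of the STAT factors, all 4 JAK kinases that phosphorylate them had negative scaled differences. Of all measured genes 39.5% were at 0.01 or lower. *Jak1* had a difference of −0.06, *Jak2* of −0.16, *Jak3* of −0.16 (0.12 from its other probe) and *Tyk2* of −0.49. The differences of *Jak1* and *Jak3* were within their expected SDs of 0.095 and 0.23. None of the 4 passed 1.5-fold, against 5.68% of all measured genes lower and 9.79% higher. Without scaling *Jak1*, *Jak2* and *Jak3* were positive, at 0.43, 0.33 and 0.33, and *Tyk2* had equal signals of 388 on both arrays. Among 22 receptor genes, all measured, 1 was lower and 1 higher by 2-fold or more, against 1.39% and 1.99% of all measured genes, and the median was −0.12. *Il2rg*, the common gamma chain of the IL-4 and IL-21 receptors, fell from a signal of 1052 to 572, with a difference of −1.37. *Csf2rb* and *Csf2rb2*, the beta chains of the GM-CSF and IL-3 receptors, had differences of −0.81 and −0.76 from their brightest probes. A second probe gave −0.97 for *Csf2rb* and −1.504 for *Csf2rb2*, where the signal went from 6475 to 3202, so that the mean over its probes put *Csf2rb2* at −1.13, past 2-fold. *Il21r* had a difference of −0.74 and *Il6st*, the shared gp130 chain of the IL-6 family, of −0.69. The beta chains are close paralogs, and binding of a probe to both was not tested. *Lifr* had a difference of 1.14 from its brightest probe, and of 0.29 and 0.44 from its other probes. The interferon receptor chains had differences of −0.01 for *Ifnar1*, 0.04 for *Ifnar2*, 0.07 for *Ifngr1* and −0.25 for *Ifngr2*. The value of *Ifnar1* is that of the brightest of its 3 probes. It ranged from −0.76 to 0.48 over the ways of processing, which include the mean over probes, so no stable difference is given for *Ifnar1*. The value of *Ifngr2* was 0.23 without scaling.

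Of 15 cytokine genes that act on these receptors, 6 were measured on both arrays, with a median of 0.05. None of them passed 1.5-fold, against 5.68% of all measured genes lower and 9.79% higher. *Il10* had a difference of 0.08, *Il6* of 0.16 and *Il15*, the lowest, of −0.14, which was 0.35 without scaling. For 5 others the probe was well above background with vehicle only, so that the fold is a bound. It is set by the dimmest signal above background on the IR-61 array or by the probe's own signal where higher. Of all 20655 named genes, 145 had such a lower bound, 769 a higher one, and 2841 were dim on both arrays. After scaling *Lif*, which acts through LIFR and gp130, was at least 3.32-fold lower and *Il13* at least 3.35-fold. *Il12a*, a subunit of the IL-12 that activates STAT4, was at least 2.04-fold lower after scaling. The bounds were 1.34-fold for *Il23a* and 1.31-fold for *Ifnb1*, whose vehicle signals of 13.9 and 13.5 were below the dimmest IR-61 signal above background, 14.5, so that neither has a bound without scaling. Without scaling the bound of *Il12a* is under 2-fold. Those of *Lif* and *Il13* are smaller too but stay past 2-fold, with a log2 difference of −1.24 for *Lif*. The probes of *Lif*, *Il13* and *Il12a* were dim, with an expected SD of 0.51 each. *Ifng*, *Csf2* and *Csf3* were not well above background in either condition.

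Of 16 other inhibitors of the pathway 15 were measured, 6 lower and 9 higher, with a median of 0.02. None passed 2-fold, against 1.39% of all measured genes lower and 1.99% higher. *Socs7* had the largest rise, 0.90, from a signal of 1396 to 3660. *Socs6* had differences of 0.59 and 0.98 from a pair of probes. *Socs2*, another STAT5 target, had a difference of −0.34 from its probe printed 10 times and of −0.71 and −1.18 from dimmer probes. Without scaling the first of these turned to 0.15. The largest fall was that of *Pias2*, at −0.48, which was 0.01 without scaling. Among partners of the STAT factors, *Irf9*, which joins STAT2 in the interferon-activated complex, rose from a signal of 4701 to 9127, a difference of 0.47. *Ncoa1* had the largest rise of that list, 0.54 from the brightest of 3 probes. Its value was 0.19 at the lowest of the ways of processing, which include the mean over probes. The acetyltransferase *Crebbp* had the largest fall, −0.54, which was −0.05 without scaling. None of the 7 listed partners passed 1.5-fold, against 5.68% of all measured genes lower and 9.79% higher, and the median of the 7 was 0.16.

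Genes that respond to STAT factors were listed by a factor known to induce them, although most of them also answer to other factors such as NF-κB. *Pim1* and *Bcl2l1* were in both the STAT3 and the STAT5 list, and no list reads a single factor alone. Of 15 STAT3-responsive genes 3 were lower by 2-fold or more and none higher, against 1.39% and 1.99% of all measured genes, with a median of −0.29 against 0.10. *Il1rn*, the IL-1 receptor antagonist, had a difference of −1.74, *Junb* of −1.71 and *Bcl3* of −1.70, and *Myc* had −0.88. The largest rise in the list was that of *Bcl2l1*, a survival gene, at 0.37. The 10 STAT5-responsive genes had a median of −0.02 and none past 2-fold, from *Bcl6* at −0.53 to *Igf1* at 0.68. Of 15 STAT6-responsive genes 12 were measured, with a median of −0.27. *Retnla*, a marker of alternative activation, had a difference of −1.01, *Ccl17* of 0.98 from a signal of 13.9 with vehicle, near background, which was 0.01 with normexp, and *Pparg* of 0.67. *Arg1* had −0.29 and *Mrc1* −0.02, both positive without scaling at 0.20 and 0.47.

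The 13 genes that respond to STAT2 and IRF9 were split, with 5 lower and 8 higher and a median of 0.10, close to that of all measured genes. *Cxcl10*, a chemokine that also answers to NF-κB, had the largest fall, −1.08, followed by *Isg15* at −0.79 and *Ifit1* at −0.77. The value of *Isg15* is from the brighter of 2 probes. It was −1.04, past 2-fold, at the lowest of the ways of processing, which include the mean over probes. *Ifi44*, a dim probe, had the largest rise, 0.72, and fell to 0.08 with normexp. *Oasl2* was higher by 0.54 and *Usp18*, which blocks the type I interferon receptor, by 0.56. Of 7 STAT4-responsive genes 6 were measured, with a median of 0.19. *Tbx21* had a difference of 1.05 from a signal of 20.7 with vehicle, and 0.12 with normexp, and the largest fall was that of *Il18rap*, at −0.15, also a dim probe, which was 0.34 without scaling.

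**Figure D5:**
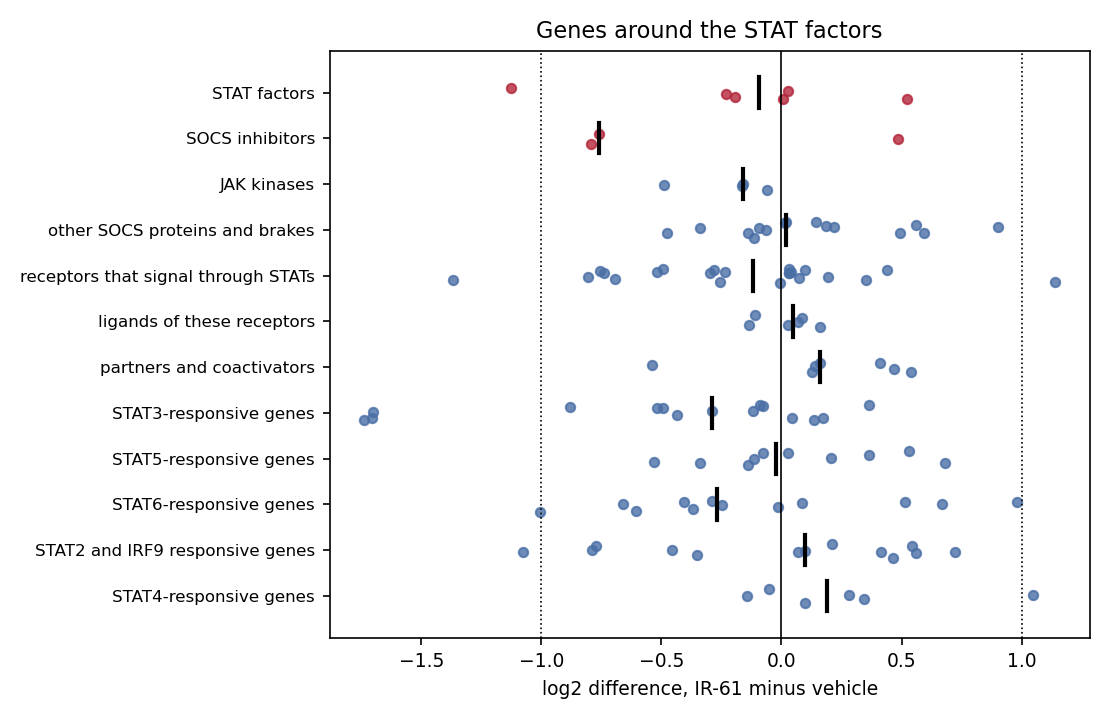
log2 difference (IR-61 minus vehicle, horizontal axis) of the 9 STAT and SOCS genes (red) and of every measured gene in the lists around them (blue), 1 point per gene, with black bars at the medians and dotted lines at 2-fold. The STAT3-responsive list reaches furthest down, with *Il1rn*, *Junb* and *Bcl3* near −1.7, and its median is −0.29.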

How the data were processed

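RNA of 1 vehicle and 1 IR-61 culture was hybridized to single-colour Agilent arrays of 44397 spots each. The authors deposited the intensity of each spot, background-subtracted and detrended within the array by Agilent Feature Extraction (version 11.0.1.1 per the file headers, 11.0.0.1 in the submitters' processing notes), with flags and a software error. A second deposited table, of log2 values whose normalization is not stated, was used as an alternative, and its columns share a median of 7.15 and follow the log2 intensities with r = 0.9995 and 0.9988 across probes.

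Here control spots were left out, as were 124 and 139 spots that the software marked as outliers, log2 intensities averaged per probe and the 75th percentile of the array subtracted, 10.30 for vehicle and 10.79 for IR-61. Probes were named by RefSeq accession through a GRCm38.p6 gene table, 27224 of 39419. Its coordinates were not used to place probes, because the array design gives another build, and served only for the order of genes on a chromosome. Of 20655 named genes, 16888 were measured on both arrays, 145 and 769 had a lower or higher bound, 12 gave no fold and 2841 were dim on both. The SD between spots came from probes printed 10 times, by log2 intensity under 6, from 6 to 10 and over 10. It was 0.37, 0.18 and 0.070 for vehicle and 0.34, 0.15 and 0.063 for IR-61. Precision is limited by having 1 array per condition.

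No test was run. The genes and lists were chosen with earlier results of these data known. Beside the 9 genes, the text names the JAK kinases, *Irf9*, listed genes past 2-fold and, for every list, its most raised and most lowered gene. Others (the further receptors, inhibitors, cytokines, markers and responsive genes) were named after their values were seen. The steps were tested on simulated arrays with noise between spots only and with set changes all larger than those of the 9 genes. That test does not show how well differences as small as theirs are found. Python 3.11.15, numpy 2.4.6, pandas 2.3.3, statsmodels 0.14.6, matplotlib 3.10.9, R 4.3.3 and limma 3.58.1 were used.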

Additional observations from a re-analysis of the deposited data

How the results depend on the processing

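No paired analysis was possible because the replicate number 1 is the only one that the vehicle and IR-61 samples have. With no scaling the median over all measured genes was 0.59 in place of 0.10. Then 0 of the 9 passed 2-fold downward, 1 (*Stat5b*) was higher, their median was 0.29, *Stat3* was 0.29 and *Stat6* 0.26, and 2228 of all genes passed 2-fold (72 lower, 2156 higher) in place of 571. With normexp background correction (offset of 50, median spot signal) 0 of the 9 passed 2-fold downward, the median over all genes was −0.03 and 273 of all genes passed 2-fold, 149 lower and 124 higher, and the cause was not tested. A dim probe of *Stat6* alone gave 0.15. With a 3-fold limit 0 of the 9 and 114 of all genes passed, and with the 1.5-fold limit 3 and 2613. With dim probes kept, 1361 genes passed, and 1063 probes did when probes were counted. Of the genes past 2-fold 41.2% were lower, and 54.2% with scaling by the median, 52.1% with quantile normalization, 50.9% with loess and 51.4% with the deposited values. Of 103 values of single genes under these alternatives 83 moved by no more than the spread between spots, among them 5 each of *Stat2* and *Stat5a* that turned negative, 17 moved further, and 3 changed sign beyond that spread. The 83 include settings that could not change a gene, such as the mean over probes for a gene with a single probe. The median over the 9 genes under the settings was added after the data were seen. With 1 array per condition no value has an error between cultures.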
